A study of Mus musculus with 12 samples.

Results

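The genes followed here are 32 genes of glycolysis and pyruvate use, read from the deposited count table by their symbols, which are 32 of the 24062 symbols it lists. They cover 4 carriers of glucose and lactate (Slc2a1, Slc2a4, Slc16a1, Slc16a3), 9 enzymes of upper glycolysis (Hk1, Hk2, Gpi1, Pfkl, Pfkm, Pfkp, Aldoa, Aldoc, Tpi1), 4 enzymes of fructose 2,6-bisphosphate turnover (Pfkfb1, Pfkfb2, Pfkfb3, Pfkfb4), 7 enzymes of lower glycolysis (Gapdh, Pgk1, Pgam1, Pgam2, Eno1, Eno3, Pkm), the 2 lactate dehydrogenases Ldha and Ldhb, 4 pyruvate dehydrogenase kinases (Pdk1 to Pdk4) and the 2 subunits Pdha1 and Pdhb of the first pyruvate dehydrogenase enzyme. RNA-Seq had been performed on whole hearts of 12 mice in 4 groups of 3, with 1 library per mouse, to examine how defects of the nuclear envelope protein LEMD2 alter the cardiac transcriptome. At 2 months of age, WT mice were compared with KI/KI mice, which are homozygous in all cells for the Lemd2 c.T38>G knock-in allele. This allele, made by CRISPR editing in B6C3F1 zygotes and bred to C57BL/6N, also carries a silent change against recutting, and the study treated it as hypomorphic. At postnatal day 1 (P1), Lemd2-floxed mice, with loxP sites on both sides of Lemd2 exon 1 and no Cre, were compared with cKO mice, which carry the same floxed allele and Myh6-Cre. The floxed allele was also made by CRISPR editing, in zygotes injected as for the knock-in, and bred to C57BL/6N, and then to Myh6-Cre mice for the cKO. The α-myosin heavy chain promoter drives this Cre in cardiomyocytes, so the other cells of the cKO heart keep Lemd2, and presence of Cre cannot be told apart from loss of Lemd2.

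Glycolysis splits glucose into pyruvate, which is reduced to lactate in the cytosol or oxidized to acetyl-CoA by the pyruvate dehydrogenase complex in mitochondria. Several steps have a muscle or heart isoform and a fetal or widespread isoform, each encoded by its own gene. The fetal and newborn heart is known to rely largely on glucose and lactate, whereas the adult heart draws most of its energy from fatty acids and keeps a large, insulin-responsive capacity for glucose uptake.

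Library totals ranged from 37063669 to 44789753 reads, so 3 counts, taken as the floor for counting error, amounted to between 0.0599 and 0.0965 CPM, the read count scaled to the size of the library. Levels below are CPM after TMM scaling of all 12 hearts, and fold changes and their adjusted p come from edgeR fits of the 6 hearts of each comparison. Lemd2 itself measured 25.6, 25.2 and 24.8 CPM in KI/KI hearts against 31.99, 34.8 and 32.9 CPM in WT hearts, and 6.59, 13.1 and 11.4 CPM in cKO hearts against 24.3, 25.0 and 25.4 CPM in floxed hearts. The log2 fold change of Lemd2 was -0.39 ± 0.059 SE in KI/KI (adjusted p = 0.186) and -1.27 ± 0.23 SE in cKO hearts (adjusted p = 0.0159), with separate groups in both. The summed level of 11 cardiomyocyte markers lay between 51701 and 113231 CPM in the 12 hearts, against 13.2 to 58.7 CPM for 11 fast skeletal muscle markers. Sums over the 12 hearts were 1182 to 1702 CPM for 8 endothelial, 18.9 to 30.8 CPM for 7 erythroid and 364 to 693 CPM for 7 fat markers. The heart of P1 cKO replicate 4 stood apart, with Xist, the X-inactivation RNA of females, at 612 CPM against 0.17 to 2.02 CPM in the other 11 hearts and with 4 Y-linked genes at a sum of 0.0798 CPM against 223 to 375 CPM. Pgk1, Pdha1, Pdk3 and Pfkfb1 are X-linked, and the calls of the P1 comparison are also given without this heart. Eno1, the widespread enolase, was listed at 0 in 11 hearts and at 1 read in adult WT replicate 3. In the GENCODE vM21 annotation, 65.4% of its 75-base windows are shared with other genes, 64.2% with Eno1b. Pgk1 and Gapdh, with 67.5% and 80.3% of windows shared, had at least 4819 and 24962 reads in every heart. The reason for the near absence of Eno1 reads was not tested. Eno1 did not pass the filter on low counts, and 31 members were tested.

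Promoter sequence is shown for the members with the largest differences between ages and for the 5 members that were higher in cKO hearts, the last set having been chosen after its values were seen. Each run below is the 250 bases before a RefSeq transcript start in GRCm38.p6, 5′ to 3′ on the strand of the gene. Where a gene has several entries, the run is from the entry whose start lies nearest the 5′ end of the gene in GENCODE vM21. Capitals mark ACGTG on either strand, 5 letters found within the hypoxia response element and within the E-box CACGTG. The variant GCGTG of the hypoxia response element was not searched for and is not marked, and the runs of Aldoc and Pfkp, among others, hold it. Slc2a4 belongs to the first set and is named only. Members lower or higher at 2 months:
Aldoc, chr11:78322823-78323072, plus strand: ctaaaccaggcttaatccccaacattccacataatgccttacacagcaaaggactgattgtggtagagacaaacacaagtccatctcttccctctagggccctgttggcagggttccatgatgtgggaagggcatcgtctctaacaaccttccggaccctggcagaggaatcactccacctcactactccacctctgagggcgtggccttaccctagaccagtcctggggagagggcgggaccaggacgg
Pdk3, chrX:93832151-93832400, minus strand: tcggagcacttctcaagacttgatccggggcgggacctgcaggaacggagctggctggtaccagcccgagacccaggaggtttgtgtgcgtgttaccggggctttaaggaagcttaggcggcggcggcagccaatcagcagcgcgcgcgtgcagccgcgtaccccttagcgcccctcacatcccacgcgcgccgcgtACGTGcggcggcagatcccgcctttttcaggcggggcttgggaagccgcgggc
Pfkfb1, chrX:150587993-150588242, plus strand: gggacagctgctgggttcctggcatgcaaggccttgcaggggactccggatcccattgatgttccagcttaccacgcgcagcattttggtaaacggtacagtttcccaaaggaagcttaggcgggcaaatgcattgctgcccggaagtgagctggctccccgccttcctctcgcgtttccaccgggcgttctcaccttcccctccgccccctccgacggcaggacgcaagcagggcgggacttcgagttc
Members higher in P1 cKO hearts:
Slc16a3, chr11:120948817-120949066, plus strand: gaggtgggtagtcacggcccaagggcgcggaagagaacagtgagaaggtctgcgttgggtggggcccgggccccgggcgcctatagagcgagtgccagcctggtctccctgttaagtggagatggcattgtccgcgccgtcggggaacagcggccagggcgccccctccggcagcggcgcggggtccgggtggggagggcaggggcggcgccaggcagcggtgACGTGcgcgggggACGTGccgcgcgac
Pgam1, chr19:41911621-41911870, plus strand: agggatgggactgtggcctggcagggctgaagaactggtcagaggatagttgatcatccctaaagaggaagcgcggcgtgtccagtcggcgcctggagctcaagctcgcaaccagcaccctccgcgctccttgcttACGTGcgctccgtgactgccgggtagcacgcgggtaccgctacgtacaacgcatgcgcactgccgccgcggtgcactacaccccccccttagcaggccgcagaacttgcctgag
Pfkp, chr13:6648772-6649021, minus strand: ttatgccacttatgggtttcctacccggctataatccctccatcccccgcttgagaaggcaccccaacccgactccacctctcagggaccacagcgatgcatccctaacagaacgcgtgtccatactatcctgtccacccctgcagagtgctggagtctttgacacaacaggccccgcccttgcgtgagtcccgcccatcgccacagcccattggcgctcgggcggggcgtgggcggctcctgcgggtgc
Ldha, chr7:46845554-46845803, plus strand: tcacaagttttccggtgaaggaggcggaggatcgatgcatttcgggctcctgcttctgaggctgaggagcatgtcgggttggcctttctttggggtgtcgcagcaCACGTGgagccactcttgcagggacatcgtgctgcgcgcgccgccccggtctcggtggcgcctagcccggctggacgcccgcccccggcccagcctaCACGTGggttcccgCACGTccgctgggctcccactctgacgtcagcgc
Pgk1, chrX:106186850-106187099, plus strand: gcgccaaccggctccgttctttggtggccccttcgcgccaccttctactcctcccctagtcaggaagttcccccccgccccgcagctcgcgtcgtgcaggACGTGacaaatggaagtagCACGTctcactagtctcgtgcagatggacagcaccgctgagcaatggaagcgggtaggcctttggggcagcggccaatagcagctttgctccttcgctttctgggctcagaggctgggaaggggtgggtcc
Of the 5 members that were higher in cKO hearts, Slc16a3, Pgam1, Ldha and Pgk1 held ACGTG in this window and Pfkp did not. The runs of Slc16a3 and Pgk1 each held 2 matches, that of Pgam1 held 1 and that of Ldha held 5, in which a CACGTG counts on both strands and also as a match to the wider E-box CANNTG. Among the members lower in cKO hearts, Pdk2 and Pfkfb2 also held ACGTG in at least 1 of their entries, Aldoc and Ldhb held none, and Slc2a4 had no entry. Over all RefSeq entries, 16.6% of 32851 promoters of this length held ACGTG and 66.2% held CANNTG. Of the 50 entries of members, 38.0% held ACGTG and 64.0% held CANNTG. Counted by gene, 15 of the 31 members with an entry (48.4%) had a promoter with ACGTG, beside 18.5% of 27025 genes, and 64.5% of members had one with CANNTG, beside 69.3% of genes. Base composition was not matched in these shares, which describe letters and not binding. The number of entries per gene was not matched in the counts by gene, where any matching entry counts.

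**Figure D1:**
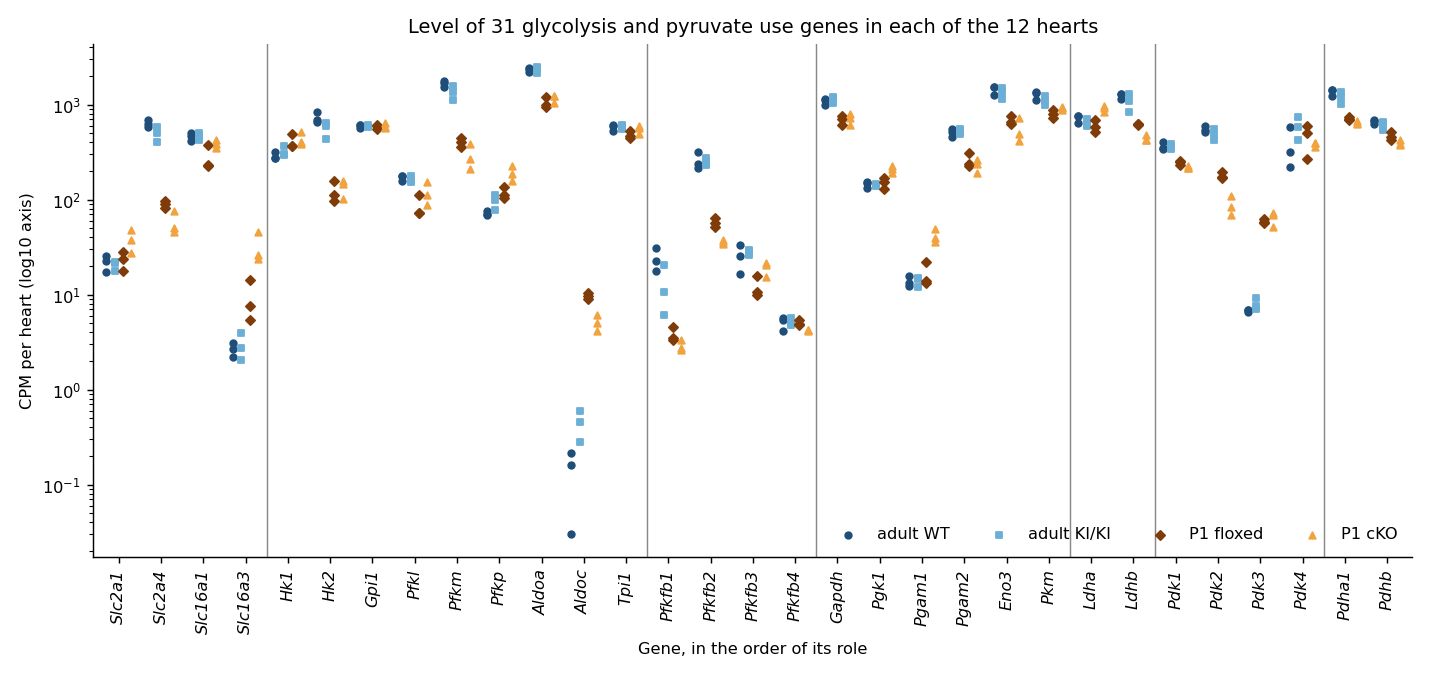
Level of 31 members in each heart, as CPM on a log10 axis, with genes in the order of their role and vertical lines between roles. Each point is 1 heart. Aldoc spans the widest range, from 0.0305 CPM in an adult WT heart to 10.5 CPM in a P1 floxed heart, and Aldoa reaches 2475 CPM.

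The first comparison asked how the 2 control groups differed, adult WT against P1 floxed hearts. Most members were higher in the adult heart: 19 of 31 were higher and 5 were lower at an adjusted p under 0.05, with Slc2a4, Pfkfb1, Hk2, Pfkfb2 and Pfkm raised by more than 2 on the log2 scale, and Aldoc and Pdk3 lowered by more than 3. The adjusted p of these 24 members lay between 2.77e-07 and 0.0353 by edgeR. They are 77.4% of those tested, beside 64.7% of the 15183 genes tested. The higher members are 61.3%, beside 31.4% of genes, and the lower members 16.1%, beside 33.3% of genes. Values of the 2 groups did not overlap for the same 24 members, beside 70.8% of genes. With a fold change above 2 as well, 9 members were higher, beside 13.3% of genes, and 3 were lower, beside 13.9%. The median log2 fold change was 0.64 over members and -0.043 over all genes. Slc2a1, Gpi1, Pfkfb4, Pgk1, Pgam1, Ldha and Pdk4 did not pass. Age goes together with allele, cross and experiment in these groups and cannot be told apart from them. In whole hearts, fewer cells of a type and less RNA per cell cannot be told apart either, and here 10 of 11 cardiomyocyte markers were higher in adult hearts, with sums of 99713 to 113231 CPM in WT against 55381 to 64414 CPM in floxed hearts. All 8 markers of dividing cells were lower, with sums of 31.4 to 62.0 against 307 to 431 CPM. All 8 macrophage and leukocyte markers were higher, with sums of 193 to 312 against 70.2 to 85.9 CPM, and of 8 fibroblast markers 1 was higher and 4 were lower, with sums of 1686 to 1923 against 4023 to 4409 CPM. The part of these cells in the members' differences was not tested.

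Among the carriers, the largest difference was that of Slc2a4, which encodes GLUT4, the insulin-responsive glucose carrier of muscle and fat. Slc2a4 measured 633, 686 and 577 CPM in adult WT hearts and 81.4, 91.05 and 95.99 CPM in P1 floxed hearts, 7.03-fold higher (log2 fold change 2.81 ± 0.098 SE). Slc2a1, the widespread basal carrier GLUT1, measured 17.3, 25.7 and 22.6 CPM in adult and 17.8, 23.8 and 28.4 CPM in P1 hearts. The groups of Slc2a1 overlapped and its log2 fold change was -0.10 ± 0.20 SE, adjusted p = 0.678. The monocarboxylate carriers, which move lactate and pyruvate with a proton, differed in opposite directions. Slc16a1, encoding MCT1, measured 473, 506 and 415 CPM in adult and 228, 233 and 373 CPM in P1 hearts (log2 fold change 0.73 ± 0.19 SE). Slc16a3, encoding the lactate exporter MCT4 of glycolytic cells, measured 2.701, 3.08 and 2.203 CPM in adult and 5.42, 7.54 and 14.2 CPM in P1 hearts. Slc16a3 was 3.43-fold lower in the adult (log2 fold change -1.78 ± 0.36 SE), with the highest floxed heart, replicate 3, well above the other two.

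In upper glycolysis, the muscle forms were higher in adult hearts, and Hk1, Pfkp and Aldoc were lower. Hk2, the hexokinase of insulin-sensitive tissues, measured 690.1, 844 and 661 CPM in adult and 112, 96.8 and 158 CPM in P1 hearts (log2 fold change 2.57 ± 0.20 SE). Hk1, the widespread hexokinase, went the other way, with 314, 276 and 275 CPM in adult and 366, 367 and 495 CPM in P1 hearts (log2 fold change -0.51 ± 0.13 SE). The groups of both hexokinases were separate. Phosphofructokinase catalyses the committed step, and its muscle subunit Pfkm measured 1707, 1787 and 1520.2 CPM in adult and 403, 360.1 and 446 CPM in P1 hearts (log2 fold change 2.04 ± 0.11 SE). The liver-type subunit Pfkl measured 177, 177 and 159 CPM against 72.6, 72.5 and 113 CPM, and was also higher (log2 fold change 0.98 ± 0.17 SE). The platelet-type subunit Pfkp was the one that was lower, at 75.8, 69.7 and 70.05 CPM in adult and 105, 111 and 136 CPM in P1 hearts (log2 fold change -0.71 ± 0.10 SE).

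The aldolases, which split fructose bisphosphate, had the widest gap between the fold changes of 2 forms of an enzyme. Aldoa, the muscle form, measured 2379.8, 2454 and 2229 CPM in adult and 956, 990.0 and 1193 CPM in P1 hearts (log2 fold change 1.16 ± 0.11 SE). Aldoc, the brain form, was close to the floor in the adult, with 5, 1 and 8 reads, and had 464, 445 and 418 reads in P1 floxed hearts. In CPM these are 0.161, 0.0305 and 0.218 against 10.5, 9.67 and 8.91, and the edgeR log2 fold change was -6.10 ± 0.37 SE. The pooled reads of each group over its pooled TMM-scaled library size gave a ratio of 69.5, P1 over adult, with a 95% counting interval of 41.3 to 127. Tpi1, which interconverts the triose phosphates, was 1.201-fold higher in the adult (log2 fold change 0.26 ± 0.093 SE). Gpi1, which turns glucose phosphate into fructose phosphate, lay between 556 and 616 CPM in the 6 hearts and did not pass (log2 fold change 0.017 ± 0.072 SE, adjusted p = 0.845).

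The Pfkfb enzymes make and break fructose 2,6-bisphosphate, an activator of phosphofructokinase. Pfkfb2, the heart form, measured 214, 320.4 and 238 CPM in adult and 57.1, 51.5 and 64.1 CPM in P1 hearts (log2 fold change 2.15 ± 0.16 SE). Pfkfb1, the liver and muscle form, measured 31.03, 22.4 and 17.7 CPM against 4.54, 3.32 and 3.48 CPM (log2 fold change 2.64 ± 0.22 SE). Pfkfb3, the inducible form, measured 25.6, 16.5 and 32.996 CPM against 10.7, 9.87 and 15.6 CPM (log2 fold change 1.05 ± 0.28 SE). The 3 genes were thus separate between the ages, with Pfkfb3 nearest to overlap at 16.5 against 15.6 CPM. Pfkfb4, the testis form, lay between 4.18 and 5.74 CPM and did not pass.

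In lower glycolysis, 4 of the 6 tested genes were higher in the adult. Eno3, the muscle enolase, measured 1538, 1516 and 1276 CPM in adult and 632, 661 and 769 CPM in P1 hearts (log2 fold change 1.06 ± 0.11 SE). Pgam2, the muscle phosphoglycerate mutase, measured 519, 558 and 456 CPM against 228, 237 and 313 CPM (log2 fold change 0.97 ± 0.13 SE). Pgam1, its widespread counterpart, measured 13.4, 15.8 and 12.3 CPM against 13.4, 13.99 and 21.8 CPM, with overlapping groups (log2 fold change -0.25 ± 0.20 SE, adjusted p = 0.295). The muscle enzymes of this stretch were therefore higher, and the widespread mutase did not pass. Gapdh, the glyceraldehyde phosphate dehydrogenase, was 1.56-fold (log2 fold change 0.64 ± 0.11 SE) and Pkm, pyruvate kinase, 1.58-fold higher in the adult (0.66 ± 0.11 SE). Gene counts do not separate the 2 splice forms of Pkm, and 80.3% of the 75-base windows of Gapdh are shared with copies elsewhere. Pgk1, phosphoglycerate kinase, lay between 131 and 167 CPM in both groups and did not pass (log2 fold change -0.061 ± 0.10 SE, adjusted p = 0.624).

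At the fate of pyruvate, Ldhb, the heart subunit of lactate dehydrogenase, measured 1290.1, 1292 and 1139.9 CPM in adult and 631, 628 and 612 CPM in P1 hearts (log2 fold change 0.99 ± 0.077 SE). Ldha, the muscle subunit known for lactate production, measured 752, 768 and 645 CPM against 515, 584 and 694 CPM and overlapped (log2 fold change 0.26 ± 0.12 SE, adjusted p = 0.0889). The subunits Pdha1 and Pdhb of pyruvate dehydrogenase, which oxidizes pyruvate, were higher in the adult, with log2 fold changes of 0.93 ± 0.083 SE and 0.50 ± 0.092 SE. The pyruvate dehydrogenase kinases, which inhibit that enzyme by phosphorylation, did not share a direction. Pdk2 measured 542, 593 and 521 CPM in adult and 194, 171 and 174 CPM in P1 hearts (log2 fold change 1.61 ± 0.084 SE). Pdk3 measured 6.88, 6.93 and 6.58 CPM in the adult and 56.4, 57.8 and 62.1 CPM at P1, 8.68-fold lower (log2 fold change -3.12 ± 0.081 SE). Pdk2 and Pdk3 thus moved apart by more than any spread within a group. Pdk1 measured 343, 404 and 353 CPM in the adult against 232, 253 and 249.7 CPM (log2 fold change 0.57 ± 0.084 SE). Pdk4, the kinase known to respond to fasting and fatty acids, spread over 576, 223 and 321 CPM in WT and 505, 589.6 and 265 CPM in floxed hearts. Its spread within each group exceeded the difference between them (log2 fold change -0.29 ± 0.42 SE, adjusted p = 0.574).

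Leaving out each heart in turn left between 22 and 25 members past the threshold. Tpi1 passed in 2 of these 6 fits and Pfkfb3 in 5, and Ldha passed without adult WT replicate 3 and without P1 floxed replicate 3. The other 22 members passed in all 6 fits. DESeq2 called 25 members, the 24 and Ldha (80.6%, beside 57.8% of genes).

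**Figure D2:**
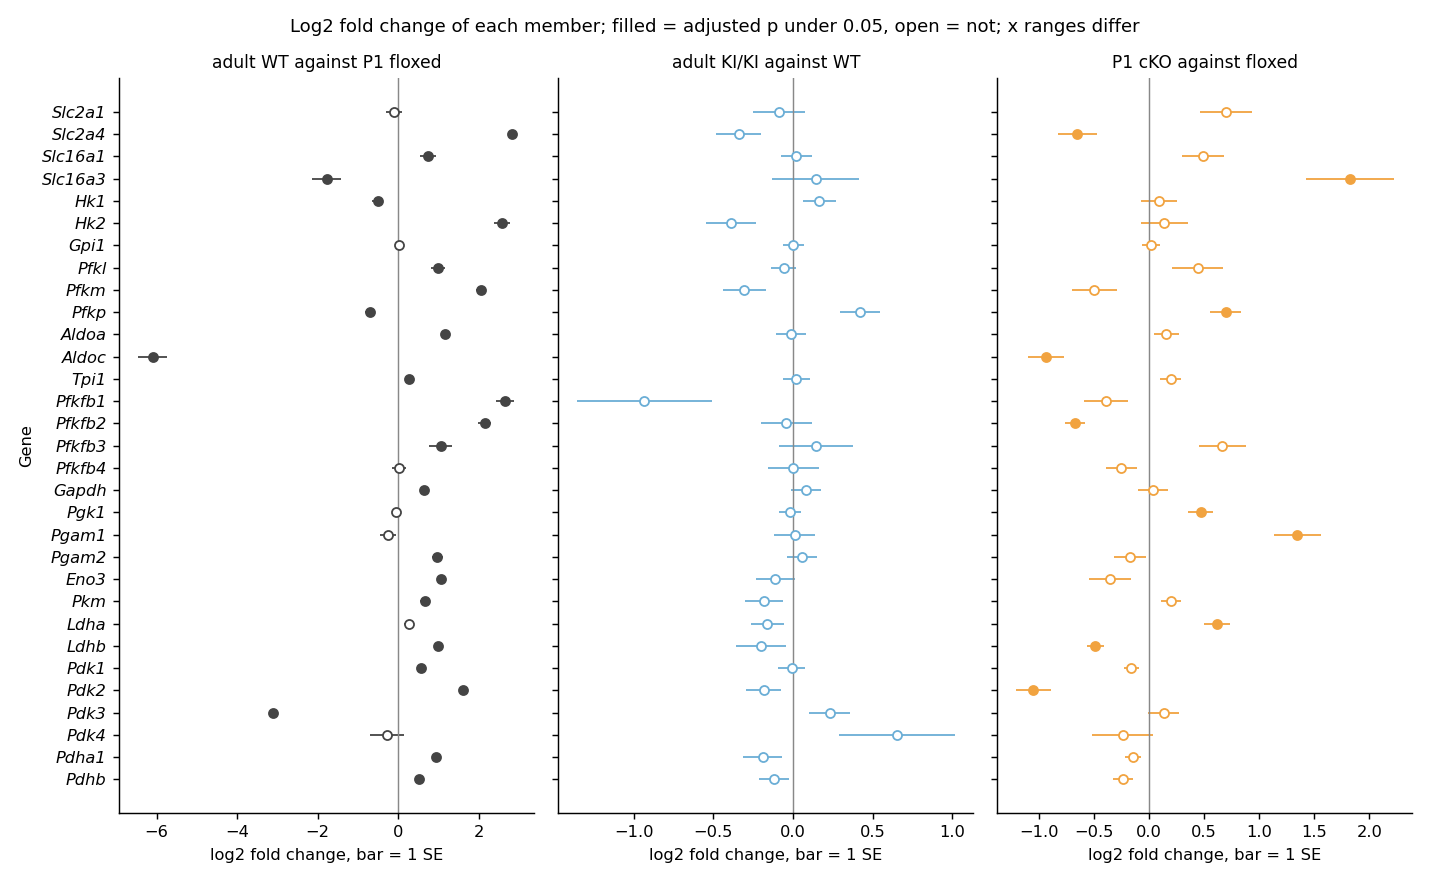
Log2 fold change of each member in adult WT against P1 floxed, adult KI/KI against WT and P1 cKO against floxed hearts, with a bar of 1 SE; filled points passed an adjusted p of 0.05 in edgeR and open points did not, and the x ranges differ. Filled points number 24 in the first panel, 0 in the second and 10 in the third.

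To set genes of one family beside each other, levels were divided by the exon length of each gene and given as a share of the family per heart. Exon length was not corrected for sequence shared with other genes, which is 40.6% of the 75-base windows of Pgam1 and 0% of those of Pgam2, and 16.7% for Ldhb and 5.23% for Ldha. The share of Slc2a4 in the 2 glucose carriers was 97.1% ± 0.521 (SD, n = 3) in adult WT and 81.8% ± 2.24 in P1 floxed hearts. Hexokinase changed its leading gene, since Hk2 made up 68.5% ± 3.62 of the 2 hexokinases per length in the adult and 20.4% ± 1.62 at P1. Pfkm already led phosphofructokinase at P1 with 72.9% ± 2.38 and reached 89.9% ± 0.405 in the adult, while Pfkp went from 14.8% ± 0.982 to 2.71% ± 0.219. Ldhb held 71.4% ± 0.502 of lactate dehydrogenase in the adult and 60.4% ± 3.98 at P1. In the kinases, Pdk2 was the largest share in the adult at 57.98% ± 6.94, and Pdk4 the largest at P1 at 44.5% ± 10.3, although the shares of Pdk4 overlapped between the ages. Pdk3 went from 10.002% ± 2.35 to 0.757% ± 0.0643. Aldoa, Pgam2 and Slc16a1 held the bulk of their families at both ages, and Pgam1 and Slc16a3 took 2.87% ± 0.278 and 3.03% ± 0.681 at P1. The summed level per length differed as well, from 39.05 ± 4.28 to 232 ± 19.8 CPM per kb for the glucose carriers and from 185 ± 23.3 to 619.8 ± 48.4 for phosphofructokinase.

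**Figure D3:**
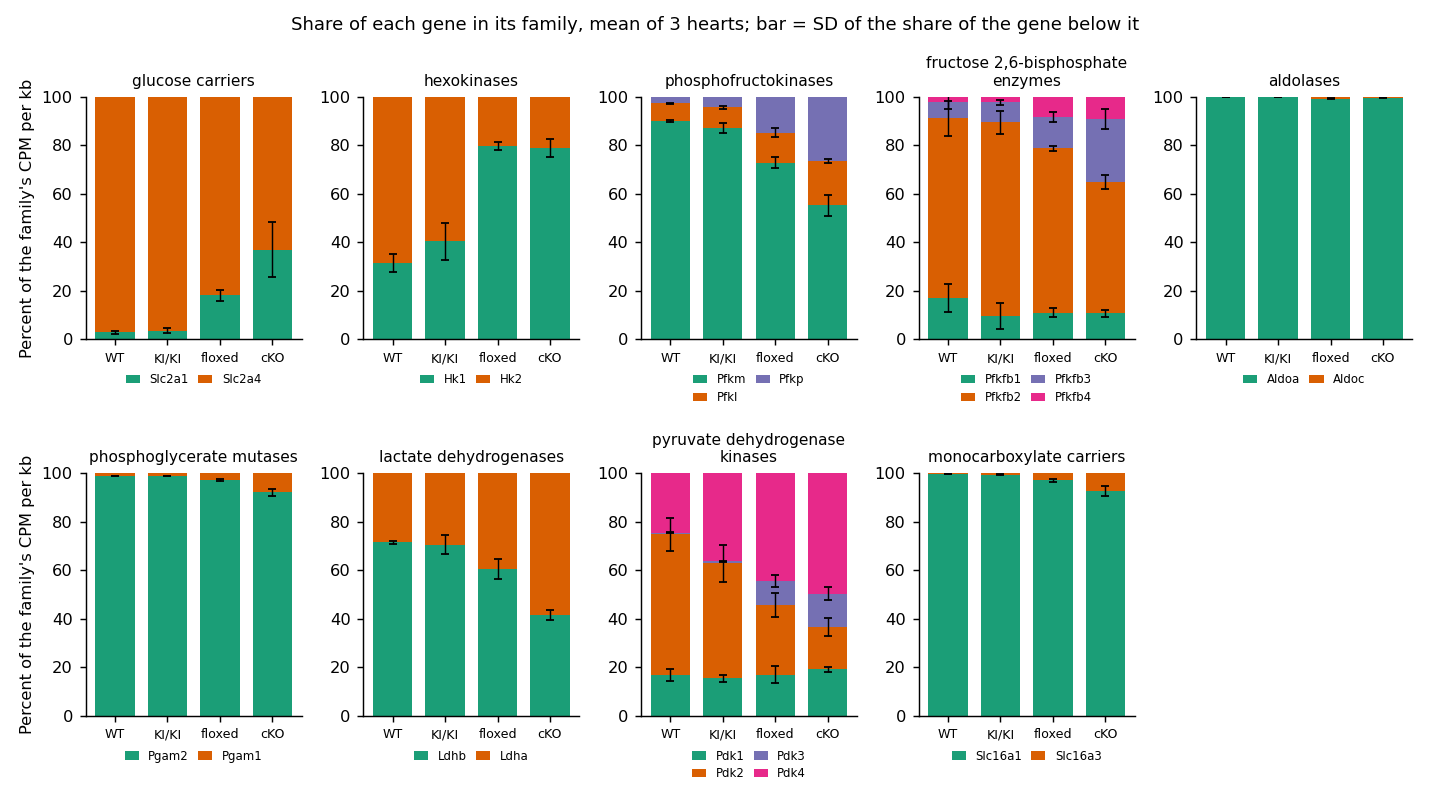
Share of each gene in its family's summed CPM per kb, as the mean of 3 hearts in adult WT, adult KI/KI, P1 floxed and P1 cKO, with error bars for the SD of the share of the gene below them. Hk1 and Hk2 exchange the larger share between P1 and adult hearts, and Ldhb falls below 50% in P1 cKO hearts.

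Isoform pairs were also read as a log2 ratio of CPM in each heart, with the muscle, heart or adult form first. The pair Slc16a3/Slc16a1 has no such order and sets 2 monocarboxylate carriers side by side. Of 11 pairs, 10 had a value, Eno3/Eno1 having none. Adult WT hearts had a higher ratio than P1 floxed hearts without overlap in 8 pairs, a lower ratio in Slc16a3/Slc16a1, and overlapped in Pdk4/Pdk1. The widest shifts were in Aldoa/Aldoc (14.49 ± 1.59 against 6.75 ± 0.28, SD, n = 3), Hk2/Hk1 (1.34 ± 0.25 against -1.76 ± 0.15) and Slc2a4/Slc2a1 (4.87 ± 0.28 against 1.96 ± 0.22). The adult Aldoa/Aldoc ratio rests on 1 to 8 reads of Aldoc. Pfkm/Pfkp differed by 2.75 ± 0.11 SE, Pfkm/Pfkl by 1.03 ± 0.15 SE, Pgam2/Pgam1 by 1.21 ± 0.089 SE, Pfkfb2/Pfkfb3 by 1.11 ± 0.46 SE and Ldhb/Ldha by 0.71 ± 0.14 SE. With 3 hearts against 3, the exact two-sided permutation test cannot give a p below 0.1, the value reached wherever groups did not overlap, so these ratios are given as values.

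**Figure D4:**
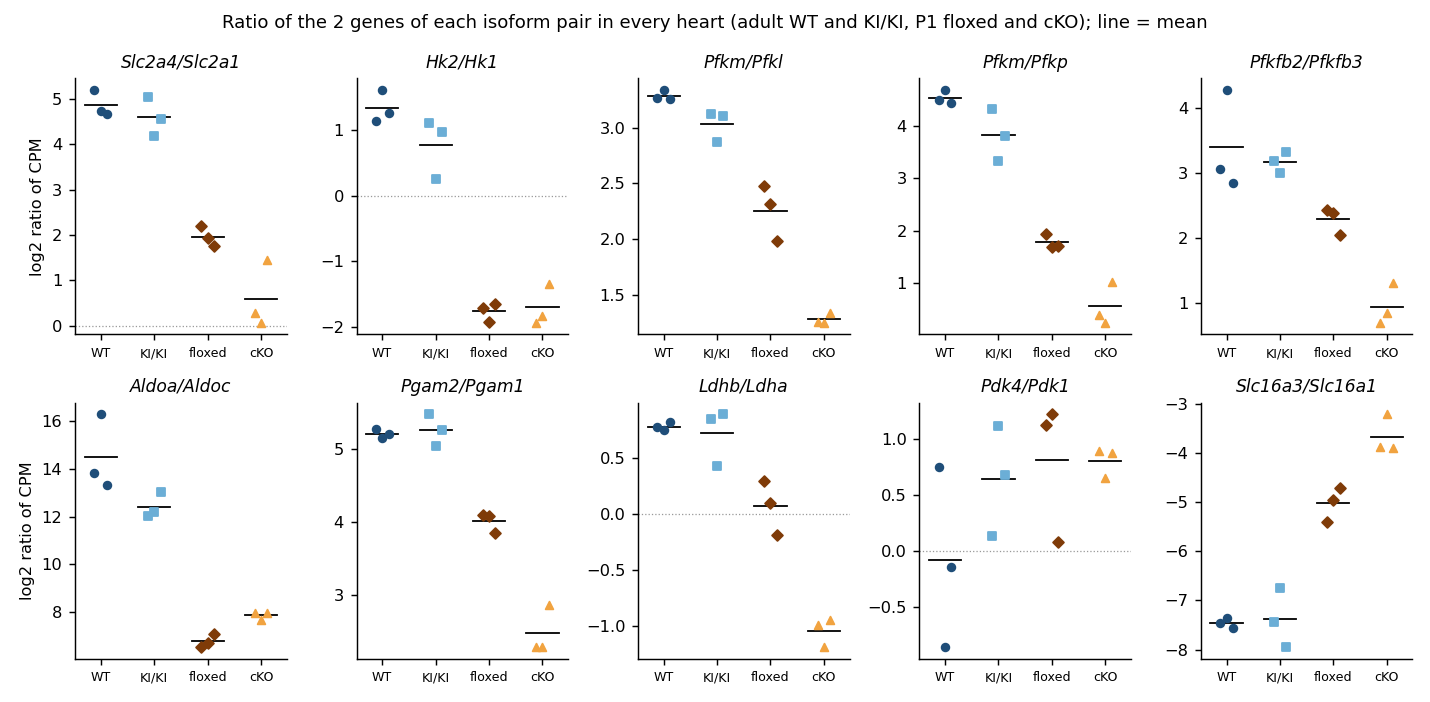
Log2 ratio of the CPM of the 2 genes of 10 pairs in every heart, with the group mean as a line; the y ranges differ. In 6 pairs the P1 cKO hearts lie below the P1 floxed hearts, which in turn lie below the adult WT hearts.

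In P1 cKO against floxed hearts, 5 members were higher and 5 were lower. The higher members were the lactate exporter Slc16a3, Pgam1, Pfkp, Ldha and Pgk1, and the lower members were Pdk2, Aldoc, Pfkfb2, Slc2a4 and Ldhb. These 10 of 31 members are 32.3%, beside 16.5% of 15317 genes tested; the higher members are 16.1%, beside 9.15%, and the lower 16.1%, beside 7.31%. Their adjusted p lay between 0.00878 and 0.0478 by edgeR. In 15 members the groups did not overlap (48.4%, beside 39.0% of genes): these 10 and Pkm, Pfkfb1, Pfkfb4, Pdk1 and Pdha1. With a fold change above 2 as well, Slc16a3 and Pgam1 were higher, beside 2.77% of genes, and Pdk2 was lower, beside 1.70%. The median log2 fold change was 0.034 over members and -0.0048 over all genes.

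Slc16a3 measured 23.9, 46.2 and 26.03 CPM in cKO hearts, above the 5.42, 7.54 and 14.2 CPM of floxed hearts (log2 fold change 1.82 ± 0.40 SE). Pgam1 measured 39.6, 49.3 and 35.9 CPM against 13.4, 13.99 and 21.8 CPM, 2.54-fold higher (log2 fold change 1.34 ± 0.21 SE). Both stood clear of the floxed hearts, in which replicate 3 was the highest for each. Pfkp measured 158, 224 and 188 CPM in cKO hearts (log2 fold change 0.70 ± 0.14 SE) and Ldha 839, 979 and 928 CPM (log2 fold change 0.61 ± 0.12 SE). Pgk1 measured 209, 226 and 191 CPM against 131, 154 and 167 CPM, 1.38-fold higher (log2 fold change 0.47 ± 0.11 SE). Part of the sequence of these genes other than Slc16a3 is not unique: 67.5% of the 75-base windows of Pgk1, 40.6% of those of Pgam1 and 5.23% of those of Ldha recur in other annotated genes, and 16.6% of those of Pfkp lie over Pitrm1 on the opposite strand, with the strand setting of the counting not given in the sources used here.

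On the other side, Pdk2 had the largest fall, to 68.8, 82.8 and 109.7 CPM from 194, 171 and 174 CPM, 2.07-fold lower (log2 fold change -1.05 ± 0.16 SE). Aldoc fell to 4.15, 6.06 and 4.98 CPM from 10.5, 9.67 and 8.91 CPM (log2 fold change -0.94 ± 0.17 SE). Pfkfb2 measured 34.3, 36.1 and 37.8 CPM, a narrow group below the 57.1, 51.5 and 64.1 CPM of floxed hearts (log2 fold change -0.68 ± 0.093 SE). Slc2a4 and Ldhb, the muscle glucose carrier and the heart subunit of lactate dehydrogenase, were also lower. Slc2a4 measured 45.6, 50.3 and 75.4 CPM (log2 fold change -0.65 ± 0.18 SE, adjusted p = 0.0478) and Ldhb 423, 429.6 and 481 CPM (log2 fold change -0.49 ± 0.076 SE). Slc2a4 was the closest to the threshold of the 10 and passed in only 1 of the 6 fits without 1 heart. Of the windows of Pfkfb2, 24.3% are shared with Gm29427, and of those of Ldhb, 16.7% with Gm5514, while Pdk2, Aldoc and Slc2a4 share none.

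The remaining 21 tested members did not pass. Slc2a1 measured 37.5, 48.2 and 27.6 CPM in cKO hearts, its lowest heart inside the floxed range (log2 fold change 0.70 ± 0.24 SE, adjusted p = 0.0904). Pfkfb3 measured 21.3, 20.3 and 15.4 CPM, its lowest heart just inside the floxed range (log2 fold change 0.66 ± 0.21 SE, adjusted p = 0.0744). DESeq2 called these 2 genes higher besides the 10 (38.7% of members, beside 24.5% of genes). Pfkm, the muscle phosphofructokinase, measured 209.9, 267 and 384 CPM (log2 fold change -0.50 ± 0.20 SE, adjusted p = 0.132). Eno3 measured 413, 486 and 720.0 CPM (log2 fold change -0.35 ± 0.19 SE, adjusted p = 0.235). For Pfkm and Eno3 the range over the cKO hearts exceeded the difference between the group means, with replicate 6 the highest, and both passed without that heart. Pgam2, the muscle mutase, measured 193, 239 and 259 CPM and overlapped with floxed hearts. Pfkl measured 87.9, 112 and 152 CPM and Slc16a1 351, 428 and 388 CPM, again with overlap. Hk1 at 384, 521 and 400.4 CPM and Hk2 at 100.4, 147 and 158 CPM lay within or near the floxed values. Of the kinases, Pdk4 measured 396, 359 and 398 CPM and Pdk3 71.6, 69.2 and 51.8 CPM, both with overlap. Pdk1 measured 213, 228 and 217 CPM, each below the floxed hearts (log2 fold change -0.16 ± 0.070 SE, adjusted p = 0.153). Aldoa at 1038, 1232 and 1232 CPM, Gapdh, Gpi1, Tpi1 and Pdhb overlapped as well, whereas Pkm lay just above and Pfkfb1, Pfkfb4 and Pdha1 just below the floxed hearts. The log2 fold changes of these last 9 genes ranged from -0.39 for Pfkfb1 to 0.20 for Pkm.

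**Figure D5:**
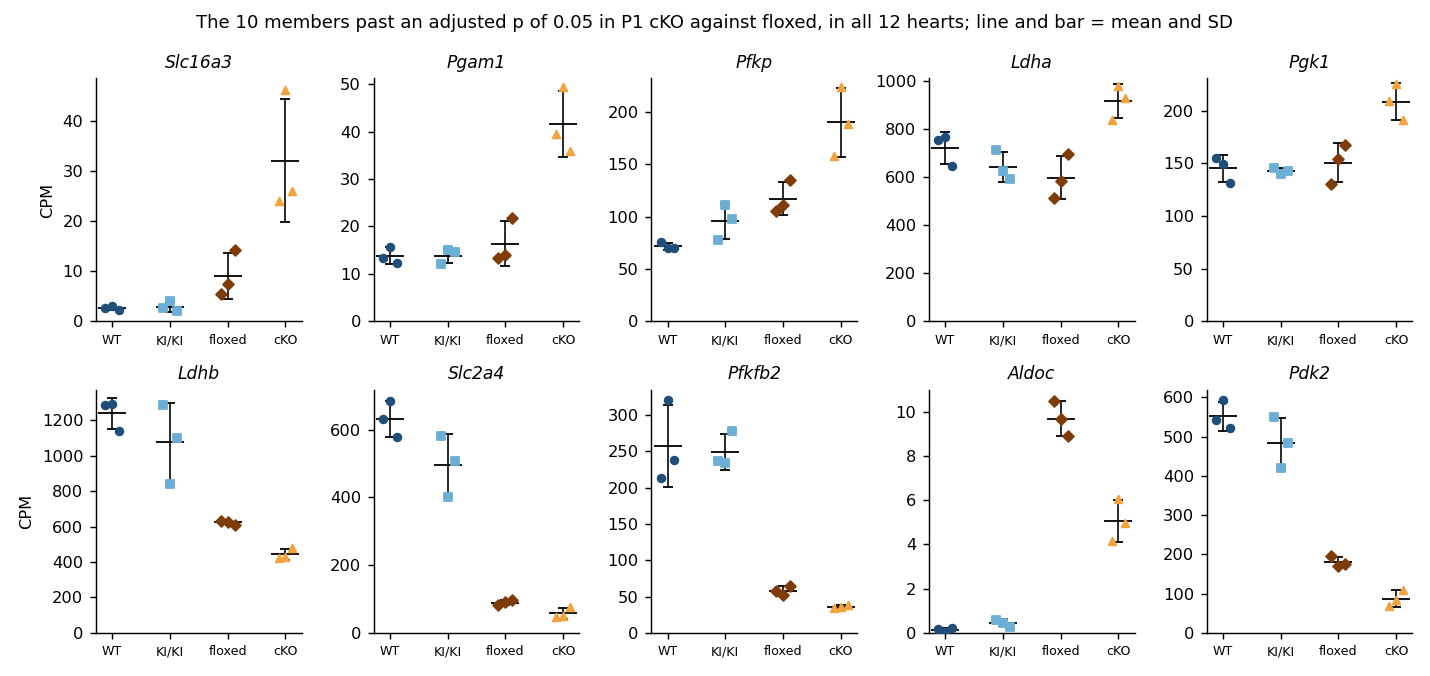
CPM of the 10 members past the threshold in P1 cKO against floxed, in every heart of the 4 groups, with the mean and SD; each y axis starts at 0. The 3 cKO hearts lie above the 3 floxed hearts in the upper row and below them in the lower row, and the genes of the upper row are higher in each cKO heart than in any of the 6 adult hearts.

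Read as shares per length, Ldhb went from 60.4% ± 3.98 (SD, n = 3) of lactate dehydrogenase in floxed to 41.4% ± 2.15 in cKO hearts, so that Ldha was the larger share in each cKO heart, while the sum of both was 794 ± 39.9 and 824 ± 49.2 CPM per kb. Pfkm went from 72.9% ± 2.38 to 55.3% ± 4.38 of phosphofructokinase, and Slc2a4 from 81.8% ± 2.24 to 63.1% ± 11.3 of the glucose carriers. In the Pfkfb family, Pfkfb2 went from 67.7% ± 0.987 to 54.2% ± 2.92 and Pfkfb3 from 12.7% ± 2.04 to 25.9% ± 4.15. Pgam1 went from 2.87% ± 0.278 to 7.97% ± 1.57 of the mutases. The hexokinases showed no such shift, with Hk2 at 20.4% ± 1.62 and 21.1% ± 3.76. In log2 ratios, 6 pairs were lower in each cKO heart than in each floxed heart, with differences of -1.53 ± 0.21 SE for Pgam2/Pgam1, -1.36 ± 0.45 SE for Slc2a4/Slc2a1, -1.34 ± 0.22 SE for Pfkfb2/Pfkfb3, -1.22 ± 0.25 SE for Pfkm/Pfkp, -1.11 ± 0.16 SE for Ldhb/Ldha and -0.97 ± 0.15 SE for Pfkm/Pfkl. Aldoa/Aldoc and Slc16a3/Slc16a1 were higher, and Hk2/Hk1 and Pdk4/Pdk1 overlapped.

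Single hearts decided many of these calls, as they did the calls over all genes. Without P1 floxed replicate 1 no member passed in edgeR, in a fit that called 0.830% of genes. Without floxed replicate 2 only Pfkfb2 and Pdk2 passed (4.01% of genes), and without cKO replicate 5 only Aldoc and Pfkfb2 (3.10% of genes). Without cKO replicate 4, the female heart, 8 passed (11.9% of genes), Slc2a4 and Pgk1 being lost. Without floxed replicate 3 the number was 12 (10.7% of genes) and without cKO replicate 6 it was 15 (21.6% of genes). The direction of the 10 members held in all 6 of these fits, with log2 fold changes of 1.47 to 2.30 for Slc16a3, 1.21 to 1.60 for Pgam1, 0.57 to 0.80 for Pfkp, 0.51 to 0.73 for Ldha, 0.37 to 0.54 for Pgk1, -1.24 to -0.92 for Pdk2, -1.08 to -0.82 for Aldoc, -0.76 to -0.60 for Pfkfb2, -0.90 to -0.53 for Slc2a4 and -0.54 to -0.46 for Ldhb. With these members moved markers of several cell types, whose counts stand beside 9.15% of all genes higher and 7.31% lower. Of 11 cardiomyocyte markers, 4 were lower and Nppa, a stress-responsive natriuretic peptide gene, was higher, and their sum lay between 51701 and 55503 CPM in cKO and between 55381 and 64414 CPM in floxed hearts. Of 8 fibroblast markers 3 were higher, with sums of 5716 to 6277 against 4023 to 4409 CPM, and of 8 macrophage and leukocyte markers 4 were higher, with sums of 114 to 167 against 70.2 to 85.9 CPM. Of 8 dividing cell markers 3 were higher, with sums of 489.7 to 1206 against 307 to 431 CPM. All 8 had a positive log2 fold change (median 1.15), and DESeq2 called 7, beside 24.5% of genes. The sum of 1206 CPM was that of cKO replicate 6, with 489.7 and 594 CPM in cKO replicates 4 and 5. Of 8 endothelial markers Pecam1 alone was higher, with sums of 1366 to 1702 against 1182 to 1290.5 CPM. The 11 fast skeletal muscle markers, of which Myh1 alone was higher, summed to 20.3 to 49.7 CPM against 13.2 to 16.6 CPM. None of these markers was at 0 in all hearts, and their part in the members' differences was not tested.

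In adult KI/KI against WT hearts, none of the 30 members tested passed an adjusted p of 0.05 in edgeR, as none of 14592 genes did (0%). At an unadjusted p under 0.05, 3 of the 30 members and 2331 genes (16.0%) passed, and DESeq2 called 518 genes (3.54%) and no member. The 3 members were Pfkp, Slc2a4 and Hk2. Pfkp measured 78.2, 111 and 98.1 CPM in KI/KI hearts, each above the WT hearts (log2 fold change 0.42 ± 0.13 SE, adjusted p = 0.242 by edgeR). Slc2a4 measured 582, 402 and 507 CPM, with KI/KI replicate 4 inside the WT range (log2 fold change -0.34 ± 0.14 SE, adjusted p = 0.308). Hk2 measured 635, 439 and 598 CPM, each below the WT hearts (log2 fold change -0.39 ± 0.16 SE, adjusted p = 0.308). Groups did not overlap for Hk2, Pfkp and Pdk3, 3 of the 30 members, beside 21.8% of genes, and Pdk3 measured 7.06, 9.24 and 7.504 CPM. The median log2 fold change was -0.017 over members and 0.0023 over all genes.

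KI/KI replicate 5 was the farthest of the 3 KI/KI hearts from the WT mean in 22 of the 30 members. It also had the lowest sum of cardiomyocyte markers, 84620 CPM against 97136 and 102508 CPM in the other two and 99713 to 113231 CPM in WT hearts, and the highest sum of fibroblast markers, 3326 against 1971 and 2274 CPM and 1686 to 1923 CPM in WT. Macrophage and leukocyte markers summed to 320.2 to 392 CPM in KI/KI and 193 to 312 CPM in WT hearts. No gene of these lists passed in edgeR, and their part in the members' values was not tested. Pfkm measured 1563, 1114 and 1369 CPM (log2 fold change -0.30 ± 0.14 SE) and Pfkfb1 20.4, 6.07 and 10.7 CPM (-0.93 ± 0.42 SE), with replicate 5 the lowest in both. Pdk4 measured 420.3, 745 and 584 CPM (0.65 ± 0.36 SE), with replicate 5 the highest. Ldhb measured 1289, 841 and 1101 CPM and Pdk2 549, 421 and 483 CPM, replicate 5 again being the lowest and the groups overlapping.

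The other partners of isoform pairs lay close to WT. Slc2a1 measured 17.5, 22.3 and 21.6 CPM and Hk1 295, 367 and 305 CPM. Pfkl measured 179, 153 and 159 CPM and Aldoa 2475, 2146 and 2349.8 CPM. Pgam2 measured 535, 496 and 559 CPM and Pgam1 12.04, 15.0004 and 14.6 CPM. These 6 genes overlapped with WT, with log2 fold changes from -0.089 for Slc2a1 to 0.17 for Hk1. Pfkfb2 measured 237, 234 and 277 CPM and Pfkfb3 26.1, 29.2 and 27.7 CPM. Eno3 measured 1492, 1148 and 1356 CPM and Ldha 713, 625 and 593 CPM. Slc16a1 measured 473, 429 and 508 CPM, Slc16a3 2.71, 3.99 and 2.05 CPM and Pdk1 382, 342 and 365 CPM. All of these overlapped with WT as well. Aldoc was too low to be tested, with 20, 19 and 10 reads in KI/KI against 5, 1 and 8 reads in WT hearts. The remaining 8 members, Gpi1, Tpi1, Pfkfb4, Gapdh, Pgk1, Pkm, Pdha1 and Pdhb, overlapped and had log2 fold changes between -0.19 and 0.079. In log2 ratios, each KI/KI heart lay below each WT heart for Hk2/Hk1 (0.78 ± 0.46 against 1.34 ± 0.25, SD, n = 3), Pfkm/Pfkp (3.82 ± 0.50 against 4.54 ± 0.13), Pfkm/Pfkl (3.03 ± 0.14 against 3.29 ± 0.043) and Aldoa/Aldoc, the last on few reads. The other 6 pairs overlapped.

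The effects of the 2 models were compared in a fit of all 12 hearts, as the cKO effect at P1 minus the KI/KI effect in the adult. Age, allele, affected cells, presence of Cre and the sex of P1 cKO replicate 4 differ between these effects and cannot be told apart. In that test Aldoc, Pgam1 and Ldha passed, 9.68% of the 31 members beside 2.51% of 15729 genes. For Pgam1 the difference was 1.34 ± 0.27 SE on the log2 scale with an adjusted p of 0.0341 by edgeR, its effect being 1.34 in cKO and 0.010 in KI/KI hearts. For Ldha it was 0.78 ± 0.17 SE, with an adjusted p of 0.0432, the effect being 0.61 in cKO and -0.16 in KI/KI hearts. For Aldoc it was -2.59 ± 0.53 SE, with an adjusted p of 0.0347, which rests on the few adult reads given above. DESeq2 called Slc16a3, Pgk1 and Pdk2 besides these 3 (9.11% of genes). Of 12 fits without 1 heart, Pgam1 passed in 5, Ldha in 4 and Aldoc in 3; none of the 3 passed without adult WT replicate 1 or 2, KI/KI replicate 4 or 6, P1 floxed replicate 1 or 2, or P1 cKO replicate 5. For the other 28 tested members a difference between the models was not detected in this test.

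Adult WT against floxed and cKO against floxed share the 3 floxed hearts, so their values are set side by side as a description. Slc2a4, Pfkfb2, Ldhb and Pdk2 were higher in the adult (log2 fold changes 2.81, 2.15, 0.99 and 1.61) and lower in cKO hearts (-0.65, -0.68, -0.49 and -1.05). Slc16a3 and Pfkp were lower in the adult (-1.78 and -0.71) and higher in cKO hearts (1.82 and 0.70). Aldoc was lower in both, Pgk1, Pgam1 and Ldha passed only in the cKO comparison, and no member was higher in both. Hk2, among the largest rises with age, had a cKO log2 fold change of 0.14 ± 0.22 SE, adjusted p = 0.687.

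Genes around the pathway were read from 6 lists, with values below as log2 fold changes. One gene, Egln3, stands in both the list of regulators and that of hypoxia-inducible factor targets. The share of all genes tested, beside which the counts stand, was 31.4% higher and 33.3% lower with age and 9.15% higher and 7.31% lower in cKO hearts. In the test of the difference between the models it was 2.51%, both directions together. Of 20 tested genes of pyruvate and lactate use outside the 32, 19 were higher in adult WT than in floxed hearts (median log2 fold change 1.19), among them Ldhd, a lactate dehydrogenase of the D form (4.95 ± 0.12 SE), and Pcx, pyruvate carboxylase (2.74 ± 0.096 SE). In cKO hearts 3 of the 20 were lower and none higher (median -0.23, beside -0.0048 over all genes): the pyruvate dehydrogenase phosphatases Pdp1 (-0.87 ± 0.11 SE) and Pdp2 (-0.81 ± 0.16 SE), which oppose the kinases, and their regulatory subunit Pdpr (-0.97 ± 0.17 SE). Pdp1 also passed the test of the difference between the models (-0.70 ± 0.15 SE, adjusted p = 0.0351), as 1 of 21 genes of this list tested there (4.76%). In KI/KI hearts none of the 20 passed and 17 had a negative log2 fold change (median -0.25, beside 0.0023 over all genes).

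Of 12 other glucose transporters and uptake regulators, 6 were higher and 3 lower in the adult (median 0.20), with Tbc1d4, a regulator of GLUT4 traffic, at 0.95 ± 0.097 SE. Of the 11 tested in cKO hearts (median -0.11), 3 were lower (27.3%), the glucose carrier Slc2a12 (-1.66 ± 0.15 SE), Tbc1d4 (-0.87 ± 0.099 SE) and the insulin receptor Insr (-0.42 ± 0.089 SE). Tbc1d4 passed the test of the difference between the models as well (-0.81 ± 0.12 SE, adjusted p = 0.0136), as 1 of 12 (8.33%). Of 15 other glycolysis and glucose phosphate enzymes tested for age, 9 were higher (60.0%) and 5 lower (33.3%; median 0.62), with the muscle fructose bisphosphatase Fbp2 at 2.15 ± 0.15 SE. None of the 14 tested in cKO hearts passed in edgeR (median -0.0082). An unadjusted p under 0.05 was reached by 4 (28.6%, beside 34.3% of all genes), and DESeq2 called 3, beside 24.5% of all genes.

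Of 15 glycogen enzymes, 11 were higher (73.3%) and 3 lower (20.0%) in the adult (median 0.62), with the muscle glycogen phosphorylase Pygm at 1.80 ± 0.10 SE and the phosphorylase kinase subunit Phkg1 at 3.62 ± 0.16 SE. In cKO hearts (median -0.30) 4 were lower (26.7%), among them Pygm (-0.45 ± 0.12 SE), Phkg1 (-1.70 ± 0.24 SE) and Phkb, and Gyg, glycogenin, was higher (1 of 15, 6.67%, at 0.68 ± 0.16 SE). Phkg1 also passed the test of the difference between the models (-1.28 ± 0.23 SE, adjusted p = 0.0246), as 1 of 15 (6.67%). Of 19 regulators of glucose use, 10 were higher (52.6%) and 3 lower (15.8%) in the adult (median 0.85), and 4 were lower in cKO hearts (21.1%, median -0.28): Mef2a (-0.61 ± 0.069 SE), Mef2c (-0.41 ± 0.083 SE), Esrrg (-0.46 ± 0.065 SE) and Ppargc1a (-0.63 ± 0.13 SE), the last 2 known for control of oxidative metabolism. Mef2c passed the test of the difference between the models (-0.54 ± 0.11 SE, adjusted p = 0.0347), as 1 of 19 (5.26%). Of 15 targets of hypoxia-inducible factor outside glycolysis, 9 were higher (60.0%) and 3 lower (20.0%) in the adult (median 1.10). In cKO hearts (median 0.20) 3 were higher (20.0%), the collagen prolyl hydroxylase subunits P4ha1 (1.04 ± 0.10 SE) and P4ha2 (0.51 ± 0.12 SE) and the carbonic anhydrase Car9 (1.15 ± 0.27 SE), and 12 did not pass. No gene of these 6 lists passed in edgeR in KI/KI against WT hearts. At an unadjusted p under 0.05 between 1 and 5 genes of each list passed there, from 6.67% of the hypoxia-inducible factor targets to 33.3% of the glucose transporters and uptake regulators, beside 16.0% of all genes. DESeq2 called 3 of the genes of pyruvate and lactate use and at most 1 in each other list, beside 3.54% of all genes.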

How the data were processed

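The samples are whole hearts per the labels. Cardiac tissue had been flash-frozen, and poly(A) RNA libraries (KAPA mRNA HyperPrep) had been sequenced as single-end reads on a NextSeq500 with a 75-cycle kit. Per the study's methods and the submitters' processing notes, the authors trimmed with Trim Galore, aligned with STAR 2.7.2b against mm10, used SAMtools 1.9 and, for library quality, Bowtie2 2.3.4.3, and took HTSeq counts per gene symbol into DESeq2. The deposited table holds raw counts, which were used here as deposited.

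Samples were grouped by their labels, 3 hearts each. In each comparison genes were filtered with filterByExpr, scaled by TMM and tested with edgeR 4.0.16 (robust quasi-likelihood test, R 4.3.3) on its own 6 hearts, and the difference between models on all 12. The SE of an edgeR log2 fold change was calculated as its absolute value divided by the square root of the F statistic of that test. P-values were adjusted by Benjamini-Hochberg over all genes tested, and an adjusted p under 0.05 was taken as a call. Alternatives were leaving out each heart, DESeq2 1.42.0, a common fit, RLE scaling, testing without the filter or with a minimum of 10 counts in each library, the replicate number as a block, the Y-linked level as a covariate and a fold change above 2. Replicates differed by more than sampling noise, so each counted as 1 sample. Named genes were all members, with the value in every heart for both genes of each isoform pair and for called members with separate groups, and up to 4 called genes from each other list. Exon lengths and shared 75-base windows came from GENCODE vM21, and promoters from RefSeq (GRCm38.p6), where 31 of 32 members matched. The edgeR and DESeq2 fits of each pair of groups were tested on simulated counts. That check did not cover the difference between the models, the ratios, the shares or the promoter search. The members and gene lists were chosen with earlier results of these data known. Some genes of the other lists are counted but not reported by name here.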

Additional observations from a re-analysis of the deposited data

Results flagged for a closer look

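For 3 genes the P1 cKO effect and the adult KI/KI effect differed from each other by edgeR's quasi-likelihood test of the difference over all 12 hearts. The difference, cKO effect minus KI/KI effect on the log2 scale, was 1.34 for Pgam1, the widespread phosphoglycerate mutase, 0.78 for Ldha, a lactate dehydrogenase subunit, and -2.59 for Aldoc, the brain aldolase. The difference for Aldoc rests on 1 to 20 reads in each adult heart. None of the 3 passed with the replicate number as a block, and of 12 fits without 1 heart Pgam1 passed in 5, Ldha in 4 and Aldoc in 3.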

How the results depend on the processing

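Adult WT against P1 floxed gave 19 members higher and 5 lower. The count of members past the threshold stayed within 1.5 times this under DESeq2, RLE size factors, no filter, a minimum of 10 counts in every library, 1 fit of all 12 hearts, the replicate block and each left-out heart (17 to 20 higher and 4 or 5 lower), and fell to 9 and 3 with a fold change above 2. P1 cKO against floxed gave 5 higher and 5 lower, which stayed within 1.5 times under the other tool, scalings, filters, common fit and covariate (4 to 7 higher and 4 or 5 lower), became 2 higher and 1 lower with a fold change above 2 and ranged over 0 to 8 higher and 0 to 7 lower with 1 heart left out. Slc2a4 was lost with RLE size factors, without a filter and with the Y-linked covariate (edgeR adjusted p = 0.0506, 0.0561 and 0.105). Pgk1 was lost with that covariate (edgeR adjusted p = 0.0750). The test of the difference between the models called 3 members, 6 with DESeq2, 0 with the replicate block and 0 to 5 with 1 heart left out. With the block this test called 0 of 15729 genes, so no gene of the other lists passed there. With 1 heart left out it called from 0.314% to 5.84% of genes, and the genes of the other lists are not given for these fits.

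Some members near 0 changed sign. With at least 10 counts in every library, Gpi1 and Pfkfb4 were at -0.0043 and -0.00083 with age. In KI/KI against WT, Gpi1 was at -0.0060 with DESeq2, -0.0039 with RLE size factors, -0.0021 without a filter and -0.0045 with all 12 hearts, and Pfkfb4 at -0.0067, -0.0049, -0.0032 and -0.0045 in the same order. With the Y-linked level as a covariate, Pfkfb4, Aldoa and Pdk1 were at -0.035, 0.0025 and 0.0085 there, and Gapdh at -0.00069 in cKO against floxed. With 1 heart left out, the members that changed sign spanned, with age, -0.023 to 0.070 for Gpi1, -0.050 to 0.16 for Pfkfb4, -0.38 to 0.015 for Pgam1, -0.16 to 0.029 for Pgk1 and -0.27 to 0.073 for Slc2a1; in KI/KI against WT, -0.061 to 0.038 for Aldoa, -0.023 to 0.019 for Gpi1, -0.061 to 0.062 for Pdk1, -0.16 to 0.14 for Pfkfb2, -0.084 to 0.41 for Pfkfb3, -0.13 to 0.10 for Pfkfb4, -0.060 to 0.11 for Pgam1, -0.012 to 0.12 for Pgam2, -0.081 to 0.024 for Pgk1, -0.046 to 0.082 for Slc16a1, -0.16 to 0.34 for Slc16a3, -0.24 to 0.037 for Slc2a1 and -0.031 to 0.063 for Tpi1; in cKO against floxed, -0.059 to 0.14 for Gapdh, -0.025 to 0.041 for Gpi1, -0.053 to 0.24 for Hk1 and -0.014 to 0.36 for Hk2; and in the difference between the models, -0.13 to 0.065 for Gapdh, -0.024 to 0.058 for Gpi1, -0.22 to 0.087 for Hk1, -0.043 to 0.15 for Pdha1 and -0.18 to 0.042 for Pdk3. None of these had passed the threshold in the comparison named, and the cause was not tested.

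Same-numbered hearts did not deviate together in all pairs (adult WT with P1 floxed, Pearson r over genes -0.22, -0.28 and -0.50, and KI/KI with cKO, 0.18, 0.23 and 0.046), so the numbers were taken as names. With the replicate block, age called 18 members higher and 5 lower, losing Tpi1. The KI/KI comparison called 0 genes in edgeR, 52 without KI/KI replicate 4 and 518 with DESeq2, and no member in any of these. Over 10% of the 75-base windows are shared with other genes in Eno1, Gapdh, Pgk1, Pgam1, Pfkfb2, Pkm, Pdhb, Ldhb, Gpi1, Pfkp and Pdha1, the last 2 with a gene on the opposite strand, and adult Aldoc rests on few reads.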

Other observations

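Eno1b, the annotated near copy of Eno1, had 87, 93 and 5 reads in adult WT hearts, 83, 8 and 6 in KI/KI hearts, 195, 511 and 12 in P1 floxed hearts and 741, 13 and 202 in P1 cKO hearts. These counts varied by more than 10-fold within each group.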
